A study of Artemia parthenogenetic lineage with 6 samples.

Results

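The internal peaks of genes between 50 and 150 kb long were described in *A. parthenogenetica* cysts during embryonic diapause termination (EDT). An internal peak was a stretch of open chromatin that overlapped the gene whose transcription start site (TSS) was nearest to it and that lay more than 3000 bp downstream of that TSS, and the gene had to be over 50000 and up to 150000 bp long. No count entered this choice. The rule took 21213 of the 112790 merged peaks in the authors' table (18.8%), which belonged to 4132 of the 4386 listed genes of this length and lay on 1369 contigs of the *A. franciscana* assembly. ArD_0h stands for wild-type cysts in diapause, without treatment, and ArR_5h for wild-type cysts from that batch taken 5 h after EDT. Each group had 3 biological replicates. All cysts were collected at Ebinur Lake, and those of ArR_5h had been dried and cooled to break diapause and were then incubated in seawater of 30‰ salinity in constant light. The labels give 28, 29 and 30 °C for ArR_5h replicates 1, 2 and 3 but 28 °C in the protocol of every library, so that it is unclear at which temperature replicates 2 and 3 were kept. A library was made from whole cysts, so a peak found in fewer nuclei and a peak less open in each nucleus cannot be told apart.

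ATAC-seq uses the Tn5 transposase, which cuts and tags DNA that is not wrapped tightly in nucleosomes, and the reads that pile up in a peak follow the accessibility of that DNA. In animal genomes, open sites away from the TSS and within introns are often enhancers or other binding sites of transcription factors, and long genes with long introns hold many of them. An *Artemia* cyst in diapause is an encysted gastrula whose metabolism and transcription have all but stopped, and both restart when diapause ends. The table gives gene bodies but no exons, so exonic and intronic peaks were not separated here.

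The internal peaks were short and of low count. Their widths ran from 200 to 2817 bp (median 315 bp), and they lay 3001 to 147988 bp from the TSS with a median of 37937 bp, and numbered 1 to 28 per gene with a median of 4. A total of 10380 of them were on genes of the plus strand and 10833 on genes of the minus strand. In replicates 1, 2 and 3, the median count of an internal peak was 38, 33 and 27 for ArD_0h and 47, 44 and 28 for ArR_5h. In edgeR 21136 of them passed the filter on low counts and 77 did not, and the tested peaks lay in 4130 genes.

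The 6 libraries held 5239170 to 9366963 counts in peaks, and ArD_0h replicate 1 stood apart from the rest. The 3566 peaks that overlap a TSS held 3.04% of its counts in peaks, against 6.18% to 8.18% in the other 5 libraries. The main counts and shares below are therefore also given without it. The internal peaks of 50 to 150 kb genes held 17.1%, 16.3% and 16.2% of the counts in peaks of the 3 diapause libraries, in the order of their replicate numbers. In the ArR_5h libraries they held 17.2%, 17.3% and 17.1%. The ArD_0h mean was 16.5% ± 0.534 (SD, n = 3) and the ArR_5h mean 17.2% ± 0.114 (SD, n = 3), which did not pass an exact permutation test (2-sided p = 0.2, where 3 libraries against 3 cannot go below 0.1). Taken of each library's total, as recovered from the deposited RPM values (reads scaled to a common total), the internal peaks held 1.82%, 2.11% and 2.05% in ArD_0h and 2.56%, 2.53% and 2.34% in ArR_5h. By this measure every ArR_5h library was above every ArD_0h library (2-sided exact p of 0.1 by permutation of the libraries, which is the lower limit here). The same order held for all peaks together. They held 10.6%, 13.0% and 12.7% of the library totals in ArD_0h and 14.8%, 14.6% and 13.7% in ArR_5h. The rise by this measure was therefore not particular to the internal peaks.

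More internal peaks of these genes gained than lost accessibility between diapause and 5 h after EDT. The quasi-likelihood test of edgeR was run on the whole table, with p-values adjusted over 112211 peaks by the Benjamini-Hochberg method. A call needed both an adjusted p no larger than 0.05 and a change of more than 1 on the log2 scale. Of the 21136 tested internal peaks, 3597 (17.0%) were higher in ArR_5h, against 14.5% of all tested peaks. A total of 2340 (11.1%) were lower, against 15.2% of all tested peaks. By the adjusted p alone, 4753 were higher (22.5%), against 20% of all tested peaks, and 3230 were lower (15.3%), against 19.7%. Thus 60.6% of the called internal peaks were higher, compared with 48.8% of the called peaks in the whole table. Scaled by the library totals in place of TMM, 4550 internal peaks were higher and 1539 lower, which makes 74.7% of their calls higher, against 64.0% of the calls in the whole table (18.9% of all tested peaks higher and 10.6% lower), and this scaling moved the median over all tested peaks by 0.16 on the log2 scale. Without ArD_0h replicate 1, 2805 were higher and 1955 lower (13.3% and 9.24%, against 10.8% and 12.6% of all tested peaks). Without ArR_5h replicate 1, 2584 were higher and 1296 lower (12.2% and 6.11%, against 10.1% and 8.49% of all tested peaks). Peaks of one gene share their libraries and are not replicates, so these shares carry no test.

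The typical internal peak had a difference near 0. The median log2 difference between ArR_5h and ArD_0h was -0.01, with the middle of the peaks between -0.65 and 0.77, against -0.07 over all tested peaks. The differences of single peaks ran from -3.58 to 3.09. In 5979 internal peaks (28.3%) every ArR_5h library was above every ArD_0h library, against 26.4% of all tested peaks, and in 4612 (21.8%) every ArR_5h library was below, against 25.7%. The peaks called higher had a median log2 difference of 1.31 and those called lower of -1.33. Of the peaks called higher, 1881 (52.3%) were called in each of the 6 fits that left out 1 library, and of those called lower 906 (38.7%) were.

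Internal peaks of genes on either side of this length range had other shares of calls but a like balance between the directions. Of the called internal peaks, 61.2% were higher in genes of up to 50 kb and 60.3% in genes over 150 kb. In the genes of this range it was 60.6%, so the excess of gains was not particular to them. In genes of up to 50 kb, 13.7% of 7128 tested internal peaks were higher and 8.73% lower. In genes over 150 kb, 19.8% of 7659 were higher and 13.0% lower. Within the range, genes of 50 to 75 kb had 14.8% of their internal peaks higher and 9.72% lower, and genes of 125 to 150 kb had 21.2% higher and 12.9% lower. The calls in both directions were thus more frequent in the longer genes. These shares were 12.2% and 8.08% without ArD_0h replicate 1 in the shorter and 16.6% and 10.5% in the longer genes. Close to the limits of the rule, 14.9% of the peaks in genes of 45 to 50 kb and 14.0% in genes of 50 to 55 kb were higher, and 19.4% in the 5 kb below and 20.7% in the 5 kb above the upper limit were. The mean log2 CPM (counts scaled to a common library size after TMM normalization) of the internal peaks, minus that in genes of up to 50 kb, was -0.08 ± 0.0283 (SD, n = 3) at diapause and -0.06 ± 0.0065 (SD, n = 3) after it (2-sided exact permutation p = 0.2). The difference between the groups was 0.025, and 0.0086 without ArD_0h replicate 1. Minus that in genes over 150 kb, it was 0.10 ± 0.0332 (SD, n = 3) at diapause and 0.05 ± 0.00189 (SD, n = 3) after it (2-sided exact permutation p = 0.1, again the lower limit). All 3 ArD_0h libraries were above the ArR_5h libraries in the second measure, with replicate 1 of ArD_0h the highest at 0.14, and the difference between the groups went from -0.049 to -0.030 when it was left out.

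Broad and strong internal peaks were called higher more often than narrow and weak ones in the main fit, but not once ArD_0h replicate 1 and the trend of the difference on level had both been removed. Of peaks up to 250 bp wide, 9.17% were higher and 10.2% lower. Of peaks between 400 and 800 bp wide, 26.3% were higher and 10.6% lower. Without ArD_0h replicate 1 the share higher was 8.63% of the narrow and 18.9% of the broad peaks. The internal peaks were also divided by average level into 5 classes of equal size. The weakest class had 5.56% higher and 14.7% lower, and the strongest had 32.5% higher and 7.29% lower. The strongest class had 20.8% higher without ArD_0h replicate 1. Peaks outside the set sloped the same way in classes cut at the same levels, from 4.80% higher and 22.3% lower to 22.8% and 9.71%. When the trend of the difference on level was removed in each library with a smooth curve, 14.4% of the weakest and 18.2% of the strongest internal peaks were higher, and 4.94% and 14.3% were lower. At each of the 5 levels the internal peaks then still had more higher and fewer lower calls than the other peaks, which had 13.2% and 11.5% higher and 8.24% and 17.1% lower at the 2 ends. A fit without ArD_0h replicate 1 and with the trend removed together was added after the data were seen. In it 13.5% of the weakest internal peaks were higher and 3.41% lower, and 9.49% of the strongest were higher and 10.6% lower, so that the order of the classes for higher calls turned. By width the order turned as well, with 12.8% of the narrow and 11.3% of the broad peaks higher. Removing the trend takes out differences between levels by design, so these turns cannot decide whether the slope of the main fit is real. The other peaks had 11.7% higher and 5.50% lower in the weakest class and 5.74% and 13.3% in the strongest, so that the internal peaks had more higher and fewer lower calls than the others here too.

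Position along the gene made little difference to the shares of calls. Segments near the gene end had fewer calls in the main fit, and for higher calls this depended on the processing. Each gene was divided into 5 equal segments, from segment 1 at the TSS to segment 5 at the gene end, and each tested internal peak was placed by its midpoint. In segment 1, which begins 3 kb from the TSS, 742 of 4332 internal peaks (17.1%) were higher and 476 (11.0%) lower. In segments 2, 3 and 4, 17.1%, 17.3% and 18.1% were higher and 11.8%, 11.3% and 11.2% lower. In segment 5, 406 of 2736 (14.8%) were higher and 249 (9.10%) lower, so that segment 1 exceeded it by 2.29 points for higher and 1.89 points for lower calls. Leaving out ArD_0h replicate 1, 13.3% were higher in segment 1 and 11.9% in segment 5, and without ArR_5h replicate 1 these were 12.5% and 10.3%. With the trend on level removed, segment 1 exceeded segment 5 by 1.21 points for higher and 0.25 points for lower calls. With ArD_0h replicate 1 left out as well, 11.5%, 10.7%, 12.4%, 13.4% and 11.7% were higher in segments 1 to 5, so segment 5 no longer had the smallest share. The shares lower were then 7.53% in segment 1 and 6.43% in segment 5. The median log2 difference lay between -0.02 and 0.01 in all 5 segments. Measured in bp instead, the share called higher was 16.8% at 3 to 10 kb and 18.0% at 80 to 150 kb from the TSS, and the share called lower was 10.8% and 11.6%. The order of the near and the far end is thus the other way round by distance.

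**Figure D1:**
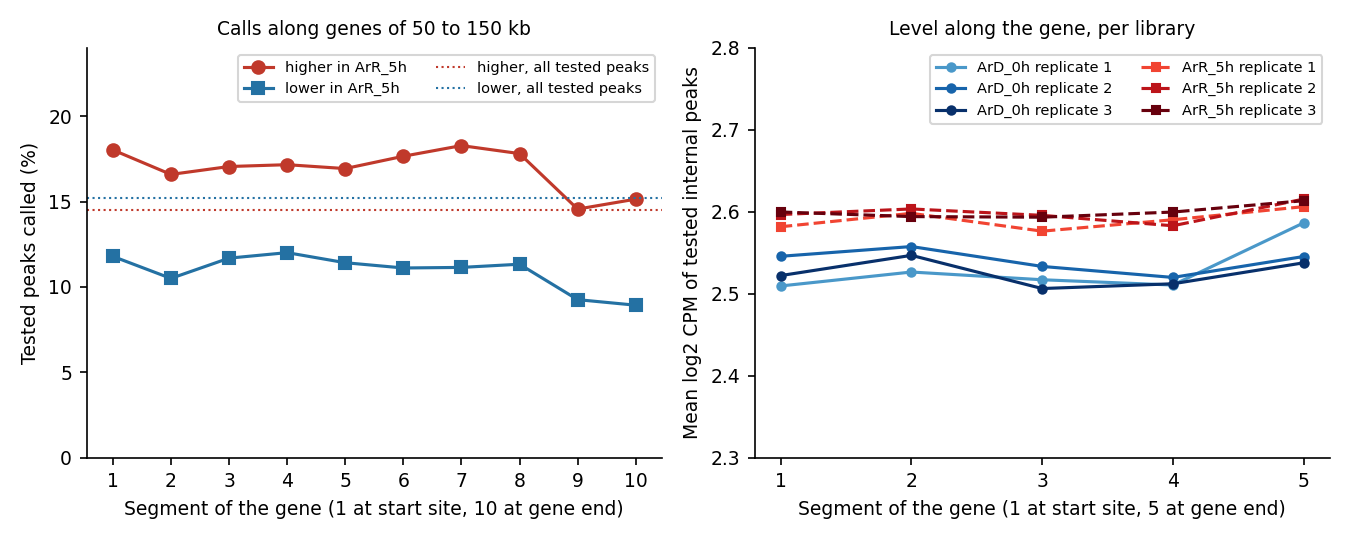
Left, percent of tested internal peaks called higher (red circles) or lower (blue squares) in ArR_5h by segment of the gene, in 10 equal segments from the TSS to the gene end, with the shares over all tested peaks as dotted lines (14.5% and 15.2%). Right, mean log2 CPM of the internal peaks by segment, with 5 to a gene, in each of the 6 libraries, on an axis that does not start at 0. In this main fit the shares are level along the gene up to segment 8 of 10 and lower in the last 2, which for higher calls was not so without ArD_0h replicate 1 and with the trend on level removed, and the 3 ArR_5h lines lie above the 3 ArD_0h lines in every segment.

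The level of the internal peaks was even along the gene in every library. The mean log2 CPM in segment 1 minus that in segment 5 was -0.08, 0.00 and -0.02 for the diapause replicates 1, 2 and 3. The same replicates of ArR_5h had -0.02, -0.02 and -0.01. The groups overlapped and their means differed by 0.01 (exact permutation test, 2-sided p = 0.9). Without ArD_0h replicate 1, which had the lowest value, the difference was -0.01.

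The fall in the number of internal peaks towards the gene end went with the nearest-TSS rule. Counting each peak whose midpoint lay more than 3 kb inside a gene of this length, whichever gene the table assigned it to, gave 26143 peaks, with 4478, 5469, 5459, 5314 and 5423 in segments 1 to 5. Of these, 1.67% in segment 1 but 30.8% in segment 4 and 49.8% in segment 5 were assigned to another gene with a closer TSS. Over all such peaks, 17.1%, 17.1%, 17.2%, 17.5% and 14.9% were higher in segments 1 to 5 and 10.9%, 11.7%, 11.4%, 11.5% and 9.24% lower. In the main fit the smaller shares in segment 5 were therefore also present when the reassigned peaks were counted. Among the 4876 tested peaks that were inside such a gene but assigned elsewhere, 15.5% were higher and 10.4% lower. Only 129 tested internal peaks lay inside another listed gene as well, 17 of them higher and 11 lower.

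**Figure D2:**
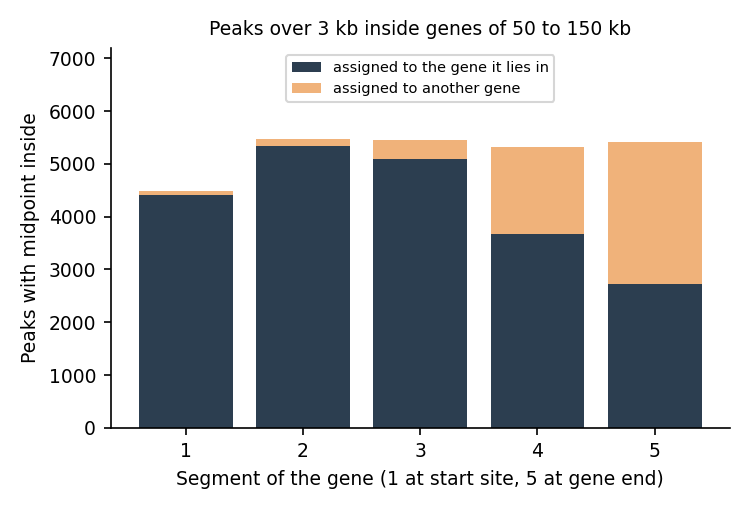
Number of peaks with their midpoint more than 3 kb inside a gene of 50 to 150 kb, by segment, with 5 to a gene, from the TSS to the gene end. The dark part of each bar (21245 peaks) is assigned to that gene and is nearly the set of 21213 described here, which is placed by the table's own distances, and the light part, 49.8% of segment 5, is assigned to a gene with a nearer TSS.

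The internal peaks with the largest gains are given first. They were chosen as the 10 called peaks with the largest log2 difference in each direction, among those of at least the median level of all tested peaks, without overlap of the groups and called in every fit that left out 1 library. The largest was in evm.TU.ctg395.10 (ctg395:542364-542700, plus strand, 41687 bp from the TSS), a gene with no functional term in the annotation used here. Its levels, in the order of the replicates here and below, were 1.39, 2.75 and 3.99 CPM in ArD_0h and 21.6, 15.2 and 14.4 CPM in ArR_5h, a log2 difference of 2.69 (SE 0.34, adjusted p = 4.55e-05). All 3 ArR_5h libraries were well above all ArD_0h libraries. A peak of the same gene at 39324 bp (ctg395:540001-540228) went from 1.67, 2.14 and 1.90 CPM to 11.4, 10.2 and 11.8 CPM, a log2 difference of 2.53 (SE 0.32, adjusted p = 4.41e-05). The spread within each group of this peak was small against the gap between them.

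A peak in evm.TU.ctg157.10, which is annotated with DNA binding, lay at 42472 bp from the TSS (ctg157:860342-860751, minus strand). It had 2.23, 4.28 and 3.23 CPM in ArD_0h and 21.2, 19.5 and 14.8 CPM in ArR_5h, a log2 difference of 2.52 (SE 0.31, adjusted p = 4.28e-05). The groups did not overlap. A broad peak of 1075 bp in evm.TU.ctg41.43, a gene annotated with RNA binding, was the strongest of the 10 (ctg41:1926327-1927401, plus strand, 6326 bp from the TSS). It had 4.59, 11.6 and 13.3 CPM in ArD_0h and 62.8, 50.6 and 44.6 CPM in ArR_5h, a log2 difference of 2.43 (SE 0.34, adjusted p = 8.31e-05). ArD_0h replicate 1 was the lowest library here, and the ArR_5h libraries were far above the other ArD_0h libraries as well. In evm.TU.ctg395.30, annotated with binding of heparan sulfate proteoglycan, a peak at 10428 bp had 0.417, 3.67 and 3.04 CPM in ArD_0h and 15.6, 12.2 and 11.1 CPM in ArR_5h (log2 difference 2.48, SE 0.40). The other 5 were in evm.TU.ctg112.17, evm.TU.ctg234.33, evm.TU.ctg3.21, evm.TU.ctg156.20 and evm.TU.ctg360.16, with log2 differences of 2.35 to 2.61, and lay 9594 to 68834 bp from the TSS.

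The largest losses were of a like size. The first was in evm.TU.ctg256.15 (ctg256:620408-620888, minus strand, 30772 bp from the TSS). It had 11.5, 16.2 and 18.4 CPM in ArD_0h and 1.58, 3.19 and 3.0 CPM in ArR_5h, a log2 difference of -2.58 (SE 0.33, adjusted p = 4.52e-05). Every ArR_5h library was far below every ArD_0h library. The strongest of the 10 was a peak of 1204 bp in evm.TU.ctg243.24 (ctg243:1649110-1650313, plus strand, 12967 bp from the TSS), with 28.5, 40.5 and 35.5 CPM in ArD_0h and 6.30, 6.49 and 4.87 CPM in ArR_5h (log2 difference -2.55, SE 0.31, adjusted p = 3.36e-05). The ArR_5h libraries were close to each other and the groups were wide apart.

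A pair of neighbouring peaks in evm.TU.ctg500.4 fell together. The first (ctg500:443205-443630, plus strand) had 14.6, 15.0 and 19.0 CPM in ArD_0h and 2.59, 3.19 and 3.19 CPM in ArR_5h, a log2 difference of -2.44 (SE 0.29, adjusted p = 3.36e-05). The second (ctg500:443794-444187) had 7.79, 14.5 and 10.3 CPM and 2.14, 1.89 and 1.87 CPM, a log2 difference of -2.45 (SE 0.33, adjusted p = 6.97e-05). Neither overlapped between the groups. The remaining 6 were in evm.TU.ctg266.6_evm.TU.ctg266.5, evm.TU.ctg103.21, evm.TU.ctg794.2, evm.TU.ctg111.27, evm.TU.ctg1557.7 and evm.TU.ctg352.21, with log2 differences of -2.33 to -2.47. All 20 of these peaks were also called with the trend on level removed and with the library totals as scaling. The rule that chose them already required a call without ArD_0h replicate 1.

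**Figure D3:**
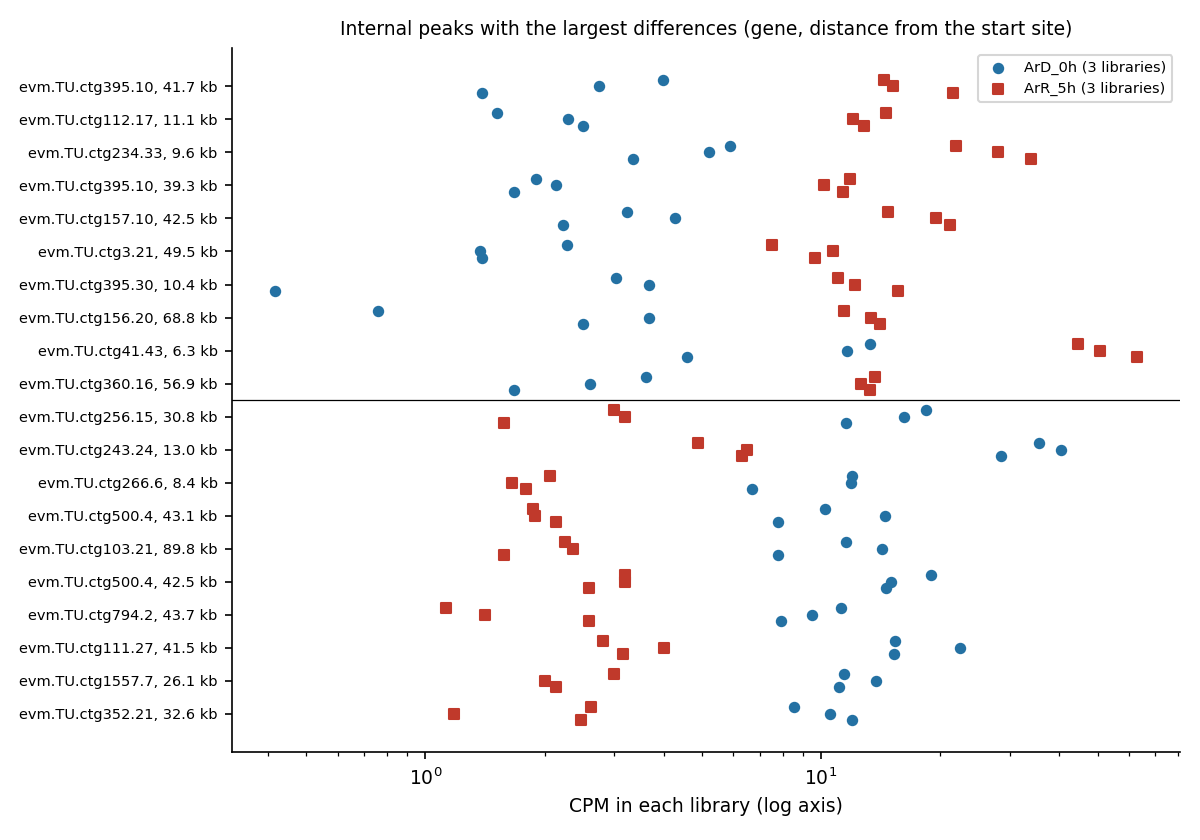
CPM on a log axis in the 3 ArD_0h libraries (blue circles) and the 3 ArR_5h libraries (red squares) of the 10 internal peaks with the largest gain (above the line) and the 10 with the largest loss (below it), each named by its gene and its distance from the TSS. The peaks that gained had 0.417 to 13.3 CPM in ArD_0h, the groups of no peak overlap, and the same rule that chose the peaks required this.

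Neighbouring internal peaks of one gene changed alike when they were close to each other. Among 17006 pairs of adjacent tested internal peaks of the same gene, with a median gap of 6102 bp, the Pearson correlation of the 2 log2 differences was 0.80 over the 2172 pairs with a gap of up to 500 bp. It was 0.66 over 1028 pairs at 500 to 1000 bp and 0.49 over 1343 pairs at 1000 to 2000 bp. It was 0.34 over 4091 pairs at 5000 to 10000 bp and 0.14 over 2005 pairs at 20000 to 50000 bp. These are correlations across peaks that share their libraries, and close peaks may also share reads, so no p is given. Where both peaks of a pair were called, they went the same way in 344 of 345 pairs up to 500 bp apart, in 413 of 497 (83.1%) at 5000 to 10000 bp and in 111 of 176 (63.1%) at 20000 to 50000 bp.

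Across the gene edge the correlations were lower than within genes at each range of gaps. Gaps were not matched within a range, so an effect of the edge itself was not tested. Up to 1 kb only 18 pairs crossed the edge, with a correlation of 0.58, against 0.76 within genes. At gaps of 1 to 5 kb, the correlation was 0.39 over 4097 adjacent pairs within a gene and 0.20 over 151 pairs made of an internal peak and the next peak outside the gene, and without ArD_0h replicate 1 it was 0.35 and 0.20. At gaps of 5 to 20 kb, the correlation was 0.31 over 7552 adjacent pairs within a gene and 0.21 over 1390 pairs across the edge. At 20 to 50 kb it was 0.14 within genes and 0.09 over 1710 pairs across the edge. Where both peaks were called, pairs within genes and pairs across the edge differed less. Such pairs went the same way in 664 of 812 (81.8%) within genes and in 84 of 107 (78.5%) across the edge at 5 to 20 kb. At 20 to 50 kb these were 111 of 176 (63.1%) and 99 of 152 (65.1%). Of the pairs across the edge that were closer together, 10 were called at both peaks, all in the same direction. The correlations at 5 to 20 kb were 0.27 within genes and 0.20 across the edge without ArD_0h replicate 1.

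**Figure D4:**
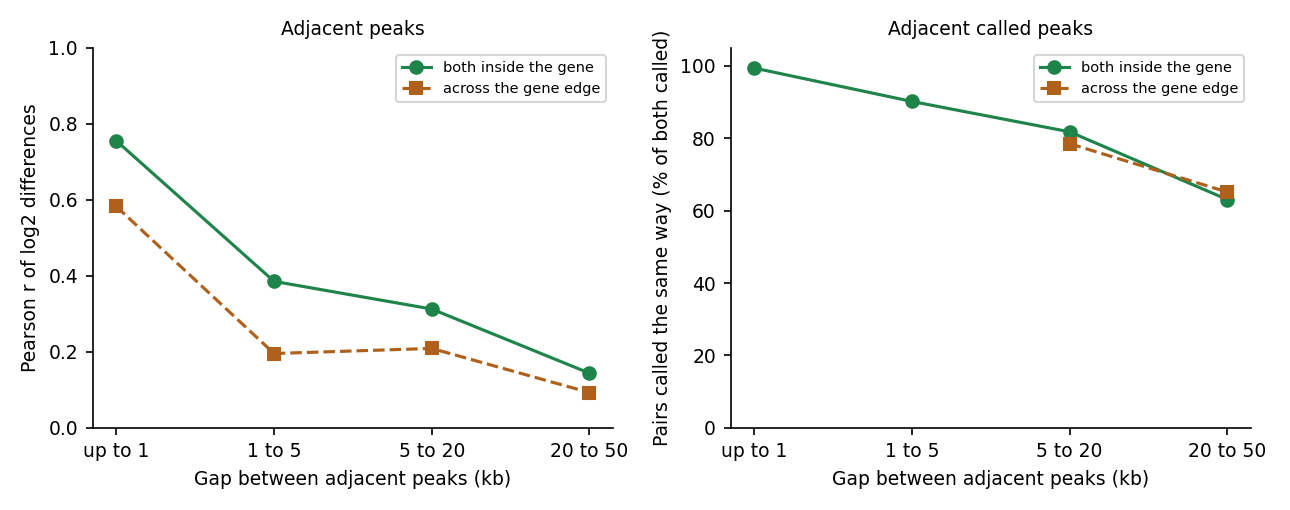
Left, Pearson r of the log2 differences of adjacent tested peaks by their gap, for pairs within one gene of 50 to 150 kb (green circles) and pairs across the gene edge (brown squares, dashed). Right, the percent of pairs called at both peaks that were called the same way, shown where at least 20 such pairs existed; within genes it falls from 99.4% at gaps up to 1 kb to 63.1% at 20 to 50 kb.

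Genes with several changed internal peaks held both directions in 33.5% of cases. Of the 4130 genes, 2533 had at least 1 called internal peak and 1597 had none. Among the 1396 genes with at least 2 called peaks, 575 had only higher peaks, 354 only lower peaks and 467 (33.5%) both. More genes held many gains than many losses. Of all called internal peaks 60.6% were gains, and the shares among genes of any length are not given here. No gathering of gains in single genes is therefore read from these counts. There were 189 genes with at least 5 higher peaks and 38 with at least 5 lower peaks, and 25 genes had at least 10 higher peaks. These numbers were 113 and 31 genes with at least 5 peaks without ArD_0h replicate 1, and 115 and 16 without ArR_5h replicate 1. With ArD_0h replicate 1 left out and the trend on level removed, they were 63 and 21.

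Among the 5 genes with the most higher internal peaks was evm.TU.ctg563.4 (ctg563:209682-351547, plus strand). Of its 23 tested internal peaks 14 were higher and none lower, with log2 differences from -0.24 to 1.84. Its summed internal counts were 366, 580 and 563 CPM in ArD_0h and 1025, 1048 and 967 CPM in ArR_5h, a log2 difference of 1.01 (SE 0.18, adjusted p = 0.00209 in an edgeR fit of the internal sums of 8043 genes). All ArR_5h libraries were above all ArD_0h libraries, and replicate 1 of ArD_0h was the lowest. The peak at its TSS was not called (log2 difference 0.46, adjusted p = 0.293), and of the other 38 tested peaks on the contig none was higher and 3 were lower. In the fit without ArD_0h replicate 1, 14 of its peaks were higher, 12 of them among the 14 named first.

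The gene evm.TU.ctg508.18 is annotated with sequence-specific DNA binding and with cation transport across membranes (ctg508:725766-870142, plus strand). Of its 23 tested internal peaks 13 were higher and none lower, spread from 5.4 to 107 kb from the TSS. The peak at 61046 bp had the largest difference, with 0.556, 1.38 and 1.52 CPM in ArD_0h and 7.20, 7.20 and 6.37 CPM in ArR_5h (log2 difference 2.61, SE 0.41, adjusted p = 0.000162). The groups were far apart. Its summed internal counts were 291, 488 and 465 CPM and then 1036, 968 and 890 CPM, a log2 difference of 1.22 (SE 0.19, adjusted p = 0.00136). Of the 13 peaks, 10 were still called without ArD_0h replicate 1.

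The other genes chosen by this count had 14 higher internal peaks each and depended more on ArD_0h replicate 1. In evm.TU.ctg1179.13, 14 of 17 tested peaks were higher, and 8 without that library. In evm.TU.ctg204.15, 14 of 19 were higher, and 8 without it. In evm.TU.ctg593.14_evm.TU.ctg593.12, 14 of 22 were higher, and 10 without it.

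Among the 5 genes with the most lower internal peaks was evm.TU.ctg140.31 (ctg140:1992024-2112117, minus strand), where all 7 tested internal peaks were lower, with log2 differences of -1.99 to -1.23. Its summed internal counts were 156, 186 and 229 CPM in ArD_0h and 59.5, 57.0 and 84.2 CPM in ArR_5h, a log2 difference of -1.52 (SE 0.20, adjusted p = 0.000788). The groups did not overlap. In evm.TU.ctg116.38 (ctg116:2192711-2311567, minus strand) 7 of 8 were lower (median log2 difference -1.96), and the sum fell from 219, 306 and 264 CPM to 59.1, 66.1 and 96.8 CPM (log2 difference -1.84, SE 0.20, adjusted p = 0.000584). At least 5 peaks of each of these genes were lower in every fit that left out 1 library.

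The gene evm.TU.ctg35.12 (ctg35:696803-830892, minus strand) went opposite ways at its start and inside in the main fit. Of its 9 tested internal peaks 7 were lower, while the peak at its TSS was higher, with a log2 difference of 1.17 (adjusted p = 0.00434). ArD_0h replicate 1 had a low share of counts at TSS peaks, and the value of this TSS peak without it is not given here. The internal peak with the largest loss lay at 92679 bp and had 15.6, 23.2 and 16.7 CPM in ArD_0h and 3.71, 3.07 and 4.87 CPM in ArR_5h (log2 difference -2.27). All ArR_5h libraries were below the ArD_0h libraries. In evm.TU.ctg298.4 (ctg298:229804-372832, minus strand) 8 of 14 were lower and 1 was higher, and 4 of the lower peaks lay next to each other between 25188 and 27687 bp from the TSS, with log2 differences of -1.66 to -1.97. In evm.TU.ctg408.33, 7 of 11 were lower.

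**Figure D5:**
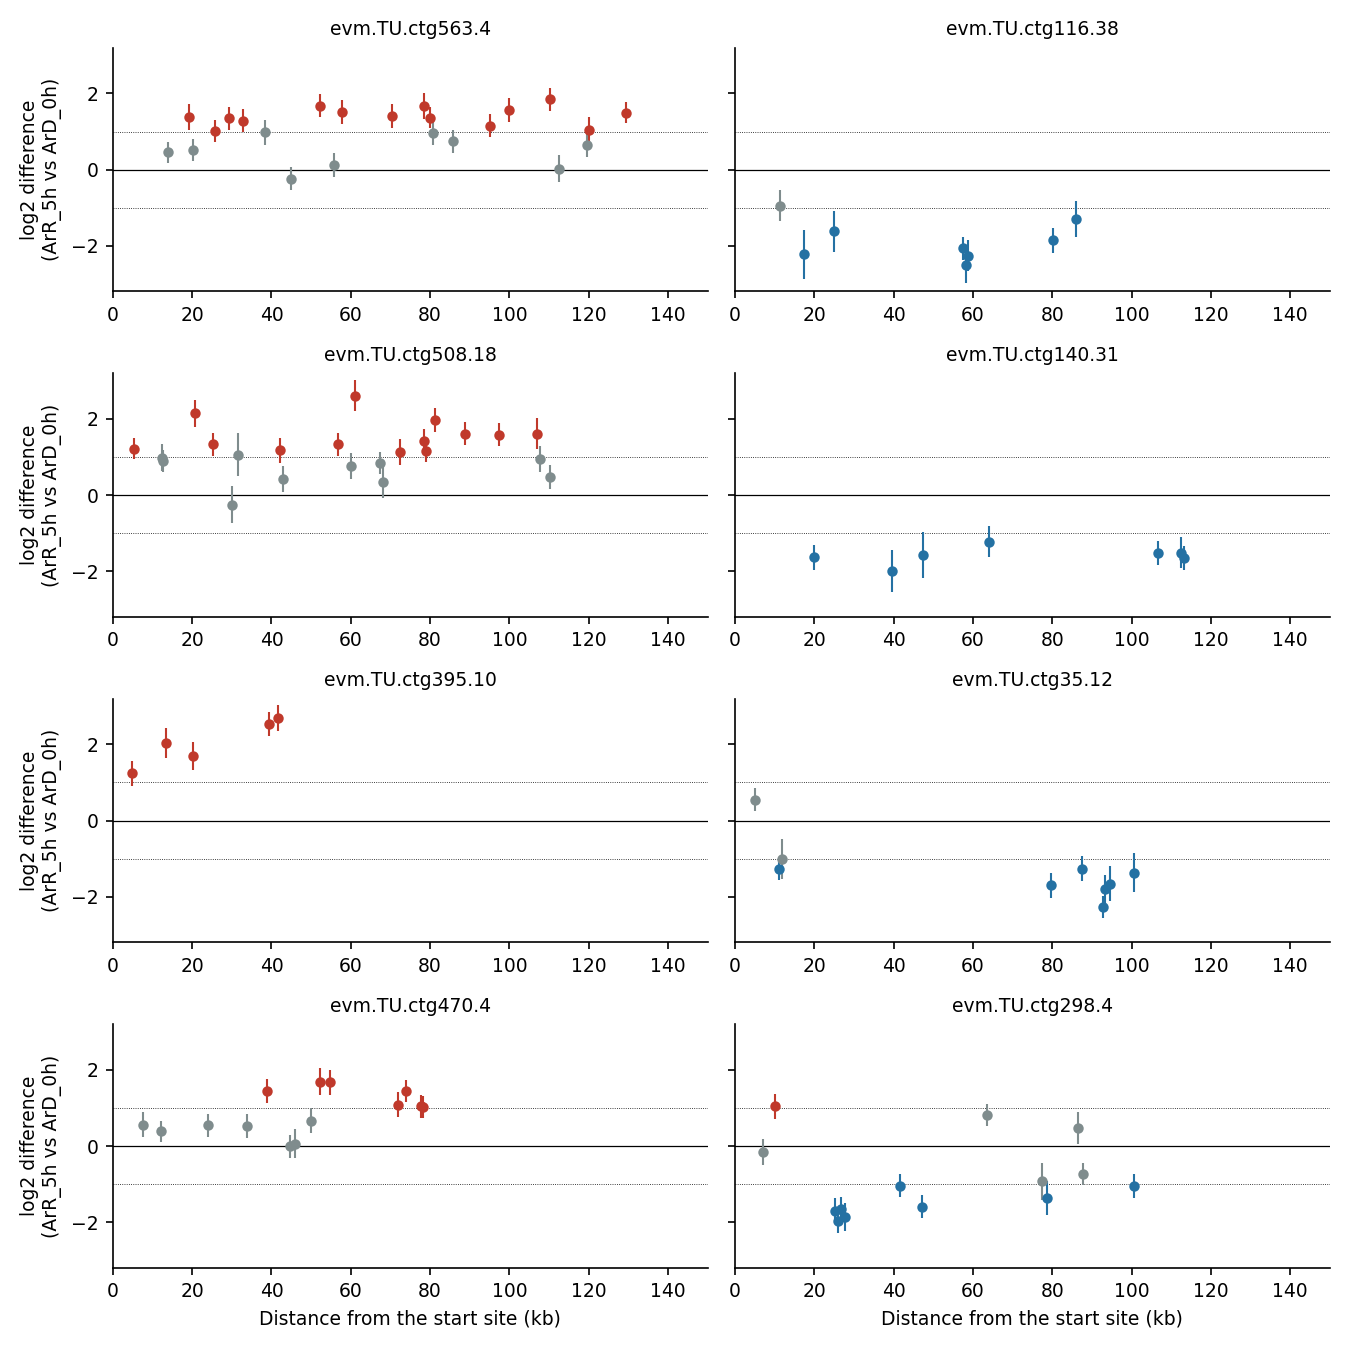
Log2 difference between ArR_5h and ArD_0h (points, with the SE as bars) of each tested internal peak against its distance from the TSS in kb, for 4 genes with many gains (left, evm.TU.ctg470.4 being the gene given as the epidermal growth factor receptor) and 4 with many losses (right). Red points were called higher, blue points lower and grey points neither, and the dotted lines mark the limit of 1; in evm.TU.ctg298.4 one called peak goes against the other 8.

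As sums over all internal peaks of a gene, fewer genes were called than as single peaks. Of the 4130 genes, 230 (5.57%) were higher, against 7% of the 8043 genes with internal peaks of any length, and 293 (7.09%) were lower, against 6.9%. The genes called higher had a median of 6 tested internal peaks and those called lower of 2. Without ArD_0h replicate 1, 97 genes were higher and 270 lower. With the library totals as scaling the balance turned, to 414 higher and 185 lower. That scaling moved the median over all tested peaks by 0.16 on the log2 scale. The shares over genes of any length are not given for these 2 fits, so the changes are not read as particular to these genes. In the main fit the shares of genes called on sums were thus near those of all genes.

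The largest rise of a sum with at least 3 tested peaks was that of evm.TU.ctg395.10 (ctg395:500677-558079, plus strand), from 31.6, 57.1 and 41.7 CPM in ArD_0h to 216, 168 and 158 CPM in ArR_5h, a log2 difference of 2.07 (SE 0.22, adjusted p = 0.000557). All of its 5 tested internal peaks were higher, at distances of 4846 to 41687 bp, and the groups did not overlap. The second was evm.TU.ctg395.14_evm.TU.ctg395.12 on the same contig, with a log2 difference of 1.84 and all 3 peaks higher. On this contig 46 of 93 tested peaks were higher and 7 lower, so the rise was not limited to these genes. In evm.TU.ctg832.1 (ctg832:66854-123516, minus strand) all 9 tested peaks were higher, with log2 differences of 1.10 to 1.84, while 4 of the other 25 tested peaks on its contig were.

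The largest fall of a sum was that of evm.TU.ctg1352.4 (ctg1352:285505-346178, plus strand), from 36.1, 59.9 and 61.1 CPM to 9.84, 10.4 and 16.6 CPM, a log2 difference of -2.12 (SE 0.30, adjusted p = 0.000973). On its contig 9 of the other 13 tested peaks were lower as well. In evm.TU.ctg465.3 (ctg465:70659-125314, plus strand) the sum went from 111, 146 and 163 CPM to 33.5, 31.6 and 35.8 CPM (log2 difference -2.05, SE 0.19, adjusted p = 0.000381), with all 3 peaks lower. The groups were wide apart in both genes. The other genes named by this rule were evm.TU.ctg41.43 (1.50), evm.TU.ctg87.44 (1.49), evm.TU.ctg1177.2 (-2.02), evm.TU.ctg668.2 (-1.94) and evm.TU.ctg1036.11 (-1.86), each given with the log2 difference of its sum.

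Internal peaks were called higher more often in genes whose TSS peak was higher. A tested peak overlapped the TSS of 1476 of the genes. In the 444 genes with a TSS peak called higher, 836 of 2725 internal peaks (30.7%) were higher and 175 (6.42%) lower. In the 1026 genes whose TSS peak was not called, 678 of 4781 (14.2%) were higher and 415 (8.68%) lower. When ArD_0h replicate 1 was left out and the TSS peaks called anew, 322 of 1290 and 811 of 6214 were higher. With the trend on level removed too, 111 of 632 (17.6%) and 875 of 6851 (12.8%) were. The TSS peak was lower in 6 genes, which held 19 tested internal peaks, 7 of them lower and none higher. Across the 1476 genes the correlation of the TSS peak with the median internal peak was 0.27, and 0.25 without ArD_0h replicate 1; all points share the same libraries, so it is a description only. Of the 444 genes with a higher TSS peak, 125 had no called internal peak and 113 had at least 1 lower internal peak.

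Called internal peaks of genes with functional terms were mostly gains. The terms come from a supplementary annotation whose genes were selected in part by the ArD_0h libraries analysed here, so the direction is not independent evidence, and the copy used here is shortened. In the 198 genes with such terms, 535 of 1473 tested internal peaks (36.3%) were higher and 54 (3.67%) lower, with a median log2 difference of 0.70. In the 3932 genes without them, 3062 of 19663 (15.6%) were higher and 2286 (11.6%) lower, with a median of -0.06. Without ArD_0h replicate 1 and with the trend on level removed, 325 (22.1%) and 41 (2.78%) of the first group were called higher and lower, against 2188 (11.1%) and 1553 (7.90%) of the second. Over all tested peaks 14.5% were higher and 15.2% lower in the main fit. The 8 lists below are parts of the first group and share its selection.

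Genes for sequence-specific DNA-binding transcription factors, which switch other genes on or off, had the largest share of gains among the 8 lists. In 13 of them 69 of 142 internal peaks (48.6%) were higher and 4 (2.82%) lower, with a median log2 difference of 0.99. Over all genes with terms these shares were 36.3% and 3.67%, and over all tested peaks 14.5% and 15.2%. Without ArD_0h replicate 1 and the trend on level, 40 of the 142 were higher and 4 lower. The 4 losses included a peak of evm.TU.ctg77.42 (ctg77:2982279-2982691), with 4.73, 9.33 and 5.70 CPM in ArD_0h and 1.58, 1.53 and 2.62 CPM in ArR_5h (log2 difference -1.82, SE 0.39, adjusted p = 0.0014). They also included a peak of evm.TU.ctg180.56 with the same log2 difference of -1.82 (SE 0.46). In both peaks the ArR_5h libraries were all below the ArD_0h libraries.

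Protein kinases add phosphate groups to proteins. In 18 such genes 57 of 153 internal peaks (37.3%) were higher and 5 (3.27%) lower, with a median log2 difference of 0.61. Leaving out ArD_0h replicate 1, 41 were higher and 2 lower. The main shares were near the 36.3% and 3.67% of all genes with terms, against 14.5% and 15.2% of all tested peaks. A peak of evm.TU.ctg95.15, which is also annotated as a tryptophan dioxygenase, lay 10753 bp from the TSS (ctg95:1137324-1138042, plus strand). It had 6.82, 12.8 and 12.7 CPM in ArD_0h and 52.8, 48.3 and 48.5 CPM in ArR_5h, a log2 difference of 2.21 (SE 0.31, adjusted p = 7.49e-05). The ArR_5h libraries were close together and far above. The opposite was seen in evm.TU.ctg906.1, a serine/threonine kinase, in a strong peak of 1032 bp with 41.3, 37.0 and 27.6 CPM in ArD_0h and 12.5, 14.9 and 17.4 CPM in ArR_5h (log2 difference -1.25, SE 0.29, adjusted p = 0.00268).

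Signal transduction genes carry messages from receptors into the cell. In 17 of them 44 of 114 internal peaks (38.6%) were higher and none lower, with a median log2 difference of 0.76. Without ArD_0h replicate 1, 35 were higher. The 2 largest were in evm.TU.ctg660.28 (2.13) and evm.TU.ctg17.30 (2.12). In 8 genes for transmembrane transporters, 26 of 72 (36.1%) were higher and 1 (1.39%) lower, with a median of 0.54, and 22 were higher without that library. The 1 lower peak was in evm.TU.ctg115.2, annotated with potassium transport, with 5.70, 3.36 and 4.56 CPM in ArD_0h and 1.13, 1.89 and 0.937 CPM in ArR_5h (log2 difference -1.75, SE 0.48, adjusted p = 0.00745). Over all genes with terms 36.3% of the internal peaks were higher and 3.67% lower, against 14.5% and 15.2% of all tested peaks. The higher shares of both lists were near that of all genes with terms.

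In 12 genes for peptidases, which cut proteins, 25 of 76 (32.9%) were higher and 3 (3.95%) lower, with a median of 0.38. Without ArD_0h replicate 1, 17 were higher and 2 lower. An aspartic peptidase gene, evm.TU.ctg726.12_evm.TU.ctg726.9_evm.TU.ctg726.13, held both directions, a peak at 52746 bp with a log2 difference of 2.23 (SE 0.36) and one at 59068 bp with -1.15 (SE 0.35). In 6 genes for proteins that bind the cytoskeleton, 18 of 66 (27.3%) were higher and none lower, led by a peak of the actin-binding gene evm.TU.ctg136.31 (2.07, SE 0.34). In 3 cell adhesion genes 4 of 16 (25%) were higher and none lower, and 2 were higher without ArD_0h replicate 1. In 3 GTP-binding genes 2 of 15 (13.3%) were higher and none lower, both in evm.TU.ctg649.17, which is below the 14.5% of all tested peaks. The higher shares in this paragraph were all below the 36.3% of all genes with terms. Over all tested peaks 14.5% were higher and 15.2% lower. A gene can stand in more than 1 list.

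Of the genes that the paper names for signaling, 7 held internal peaks of this kind. The paper chose these genes by changes of accessibility and expression between stages, in part from the ArD_0h and ArR_5h libraries analysed here. It lists evm.TU.ctg470.4 among the genes that rose in both of its steps. The directions below are therefore not independent evidence. In evm.TU.ctg470.4, given as the epidermal growth factor receptor, a receptor tyrosine kinase (ctg470:257031-350676, minus strand), 7 of 14 tested internal peaks were higher and none lower. The 7 higher peaks all lay beyond 38 kb from the TSS, and the 4 peaks closer to it had log2 differences of 0.39 to 0.55. Peaks at 44674, 46023 and 50050 bp were not called either, with log2 differences of -0.01, 0.06 and 0.66. The largest gain, at 52131 bp, had 1.39, 3.52 and 2.47 CPM in ArD_0h and 8.66, 7.91 and 7.12 CPM in ArR_5h (log2 difference 1.69, SE 0.35, adjusted p = 0.00105). Its summed internal counts, 247, 363 and 342 CPM in ArD_0h and 594, 587 and 576 CPM in ArR_5h, differed by 0.88 on the log2 scale (SE 0.16, adjusted p = 0.00252), which is below the limit on size. The groups did not overlap, and 5 of the 7 peaks were called without ArD_0h replicate 1.

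G-protein coupled receptors (GPCRs) pass outside signals through G proteins, and the paper names candidate genes for them. Of the candidates with internal peaks here, only evm.TU.ctg179.30 had GPCR structure by the paper's predictions. In evm.TU.ctg115.32, evm.TU.ctg179.3 and evm.TU.ctg25.48 none of its tools found a transmembrane helix. In evm.TU.ctg288.3 and evm.TU.ctg42.32 they found fewer than a GPCR has. In the 6 candidate genes 3 of 27 tested internal peaks (11.1%) were higher and 5 (18.5%) lower. This is near the 14.5% and 15.2% of all tested peaks, so nothing is read from these counts about the genes as a group. In evm.TU.ctg288.3, 2 of 5 internal peaks were higher, and the one at 20322 bp had 8.62, 14.2 and 10.3 CPM in ArD_0h and 28.0, 32.5 and 19.9 CPM in ArR_5h (log2 difference 1.28, SE 0.31, adjusted p = 0.00287). The other had 4.31 CPM in ArD_0h replicate 1 against 14.4 and 21.9 CPM in replicates 2 and 3, and without replicate 1 its log2 difference of 0.97 (adjusted p = 2.45e-06 in edgeR) fell just short of the limit on size. In evm.TU.ctg115.32, 2 of 9 were lower, at 34904 and 33950 bp from the TSS, with log2 differences of -1.33 and -1.29.

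In evm.TU.ctg179.3, 2 of 3 were lower, and the one at 20295 bp had 5.70, 4.89 and 2.47 CPM in ArD_0h and 1.35, 0.826 and 1.50 CPM in ArR_5h (log2 difference -1.85, SE 0.51, adjusted p = 0.00742). The other, at 38555 bp, kept its call in only 2 of the 6 fits that left out 1 library. It was also not called with the trend on level removed or with the library totals as scaling. In evm.TU.ctg42.32, 1 of 3 was higher (1.18) and 1 lower (-1.34). Neither of the 2 internal peaks of evm.TU.ctg25.48 was called, with log2 differences of -0.66 and -0.61, although its TSS peak was higher in the main fit (1.22, adjusted p = 0.00669). The value of that TSS peak without ArD_0h replicate 1 is not given here. None of the 5 internal peaks of evm.TU.ctg179.30, given as a GPCR of the opsin family, which are light receptors, was called, with log2 differences of -0.86 to 0.04.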

How the data were processed

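ATAC-seq libraries of ArD_0h and ArR_5h cysts (3 each) were analysed. The submitters' notes name BWA and MACS2, and the paper describes trimming with skewer, mapping to the *A. franciscana* assembly and removal of duplicates. A Tn5 shift and the counting tool are not given in the sources used here. The authors' deposited counts are whole numbers of reads per merged peak and library, and the authors' deposited RPM values are these counts scaled to 1 total per library (40032026 to 63171194), used here only to recover the totals. The deposited distances to the TSS and gene lengths are in bp. Coordinates are those of the deposited table.

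The peak table was fitted as a whole by edgeR 4.0.16 under R 4.3.3 (TMM, filterByExpr, quasi-likelihood test, Benjamini-Hochberg adjustment over 112211 tested peaks), with no replicate block. SE is the log2 difference over the root of F. Levels are TMM-normalized CPM, log2 CPM has a prior count of 2, and counts of each gene were also summed over its internal peaks. Alternatives were other size factors, library totals, removal of a trend on level (lowess, span 0.3), DESeq2 1.42.0, no filter, no limit on size, other member limits, other position bins and fits without each library. The fit without ArD_0h replicate 1 with the trend removed was chosen after the data were seen. Exact tests used scipy 1.17.1. The test was checked on simulated counts.

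Named genes are those of the paper that hold an internal peak, in each direction the 10 largest robust peaks, the 5 genes with most called peaks and the 5 with the largest called sums over at least 3 peaks, and the 2 largest called peaks per direction of each of 8 annotation lists. The members and lists were chosen with earlier results of these data known. The replicates came from 1 batch of cysts, so p-values measure the spread between these libraries. The precision of a peak is limited by its count, and no genome sequence was used here. The ArR_30min libraries were not analysed here.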

Additional observations from a re-analysis of the deposited data

How the results depend on the processing

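The counts of called internal peaks depended on the library left out and on the scaling by library totals more than on the choice of edgeR or DESeq2. Leaving out each library in turn gave 2584 to 4077 peaks higher and 1296 to 2409 lower, the fewest in both directions without ArR_5h replicate 1. The median log2 difference ranged from -0.018 to 0.070 (0.070 and 0.031 without ArD_0h replicates 1 and 2), the number of genes higher on summed counts from 97 to 340, and the difference between groups in segment 1 minus segment 5 from -0.011 to 0.027. The library totals gave 4550 internal peaks higher and 1539 lower, 414 genes higher, 185 genes lower and a median of 0.15. With the trend on level removed and ArD_0h replicate 1 left out, 99 genes were higher and the median was 0.11. With no limit on the log2 difference, 882 genes were higher and 911 lower. Segment 1 minus segment 5 was 0.25 points for lower calls with the trend on level removed; distances of 3 to 10 kb minus over 80 kb gave -1.19 points for higher and -0.81 points for lower calls, and medians in place of means gave -0.037 for the level. The cause of these shifts was not tested. DESeq2 gave 3757 higher and 2163 lower. With the replicate number as a block, 3616 internal peaks were higher and 2057 lower, and 246 genes were higher and 259 lower on sums; same-numbered libraries had correlations of -0.21, 0.00 and -0.14 of their deviations and did not correlate best with their own number, so the numbers were not taken as pairs. Of the settings tried for single named peaks and genes, 1409 kept the call, 71 lost it, 19 gained it and 0 turned. Weak peaks with few counts cannot show small differences at this depth.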
